A study of Mus musculus with 2 samples.

Results

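Notch1, Notch2, Notch3, Notch4, Dll1, Dll4, Jag1, Jag2, Hes1 and Heyl were followed through the cells of the newborn mouse lung. The 10 genes were taken by name from the 27254 genes counted in either of 2 Drop-seq libraries, and each was found in both. Drop-seq encloses single cells in droplets with barcoded beads. A transcript receives a sequence shared by its cell and a random tag of its own (the unique molecular identifier, UMI), and counts are numbers of different tags. Each library came from the whole lung of 1 female C57BL/6J mouse of wt genotype at postnatal day (PND) 1, with no treatment and no second condition, and the mouse is called Batch 1 or Batch 2. The comparisons were therefore made between cell types, with the mouse as the replicate (n = 2).

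Notch receptors are single-pass membrane proteins that are activated by ligands on a neighbouring cell. Ligand binding and the pull of ligand endocytosis expose the receptor to proteases, and the released intracellular part joins the DNA-binding protein Rbpj in the nucleus and switches on genes of the Hes and Hey families. In vessels the ligands Dll4 and Jag1 and the receptors Notch1 and Notch4 are known for their roles in sprouting and arterial identity, and Notch3 for its role in pericytes and vascular smooth muscle. In the airway, Notch signalling between neighbouring epithelial cells is known to separate secretory from ciliated fates.

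After cells with over 10% mitochondrial UMIs were removed, 8003 cells remained, 2388 from Batch 1 and 5615 from Batch 2, with 4432553 and 18232639 UMIs and medians of 1386.5 and 2014 UMIs per cell. The libraries shared 0 cell barcodes. Clustering without the 10 genes and without 38 other genes of the pathway gave 22 classes of at least 10 cells in each batch. Of these, 5 were endothelial, 2 mural (pericyte-like and vascular smooth muscle-like, the contractile cells on the outside of vessels), 4 epithelial and 6 immune, and 5 held other mesenchymal cells. The summed level of 10 endothelial markers was 10517 and 9789 CPM (counts per 1e6 UMIs) in endothelial cells of Batch 1 and Batch 2, against 448 and 408 CPM in mural cells. That of 8 mural markers was 6615 and 6488 CPM in mural cells against 342 and 337 CPM in endothelial cells. Sftpc, made by alveolar type 2 (AT2) cells, was counted in every compartment and stood at 914 and 900 CPM in endothelial cells against 80663 and 43797 CPM in epithelial cells.

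Levels are given as CPM, the UMIs of a gene scaled to 1e6 UMIs of all cells of a class in 1 batch, and intervals of levels and ratios are exact and cover counting error only. Since the counts come from transcript ends and are not divided by length, levels are compared between cells and not between genes. Shares of cells with at least 1 UMI are given at equal depth, as the share expected when 1000 UMIs are drawn from each cell that has as many. As a background for such shares, Ptprc, a gene of blood cells, had a UMI in 0.143% and 0.146% of endothelial cells against 23.8% and 31.3% of immune cells, and Cdh5, a gene of endothelium, in 3.16% and 0.645% of epithelial cells against 51.0% and 50.6% of endothelial cells. Tests were made with edgeR on summed counts, and p-values were adjusted over all genes of a comparison by the Benjamini-Hochberg method, with calls at an adjusted p under 0.05. The cells were clustered on other genes of the same libraries, so that the classes are not independent of genes that vary with those.

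All 10 genes are protein coding and lie, on GRCm38, on 6 chromosomes, with Dll4, Jag1 and Notch1 on chromosome 2 and Dll1, Notch3 and Notch4 on chromosome 17. Notch3 covers chr17:32120820-32166852 on the minus strand, Notch4 chr17:34564268-34588503 on the plus strand and Dll4 chr2:119325784-119335962 on the plus strand. Promoter windows were found for 8 of the 10 genes. Notch3, with its counts mostly in mural cells, and Notch4 and Dll4, with theirs mostly in endothelial cells, are shown for the vessel wall and the vessel lining, and the 250 bases before their RefSeq start (GRCm38.p6) are given here 5′ to 3′ on the strand of the gene. Capitals mark GC boxes, the letters GGGCGG on either strand, a common element of promoters without a TATA box.
Notch3, chr17:32166891-32167140, minus strand: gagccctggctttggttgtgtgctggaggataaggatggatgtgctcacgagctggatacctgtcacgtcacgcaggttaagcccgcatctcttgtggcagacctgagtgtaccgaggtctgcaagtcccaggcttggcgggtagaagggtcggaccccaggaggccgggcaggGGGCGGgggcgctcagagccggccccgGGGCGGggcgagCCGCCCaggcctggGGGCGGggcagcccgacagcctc
Notch4, chr17:34564045-34564294, plus strand: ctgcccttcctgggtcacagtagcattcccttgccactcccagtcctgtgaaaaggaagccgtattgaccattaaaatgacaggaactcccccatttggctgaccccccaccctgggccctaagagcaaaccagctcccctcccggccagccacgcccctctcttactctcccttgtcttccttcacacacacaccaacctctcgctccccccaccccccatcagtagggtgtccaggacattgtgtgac
Dll4, chr2:119325534-119325783, plus strand: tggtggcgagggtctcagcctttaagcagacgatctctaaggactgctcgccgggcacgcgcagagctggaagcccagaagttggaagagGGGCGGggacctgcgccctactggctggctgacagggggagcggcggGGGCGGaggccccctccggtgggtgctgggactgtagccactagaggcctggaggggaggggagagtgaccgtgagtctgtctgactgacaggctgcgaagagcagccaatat
The window of Notch3 held 4 GC boxes, that of Dll4 2 and that of Notch4 0, while 32.97% of 32536 RefSeq promoter windows of this length held at least 1. The core letters bound by Rbpj, TGGGAA on either strand, were in 21.63% of all windows. A strict form of the ETS factor site, CCGGAA on either strand, was in 12.1%. Neither was in the windows of these 3 genes. The shorter ETS core GGAA was not counted, and it does occur in the printed windows of Notch4 and Dll4. Hes1 and Heyl had no window in the table.

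**Figure D1:**
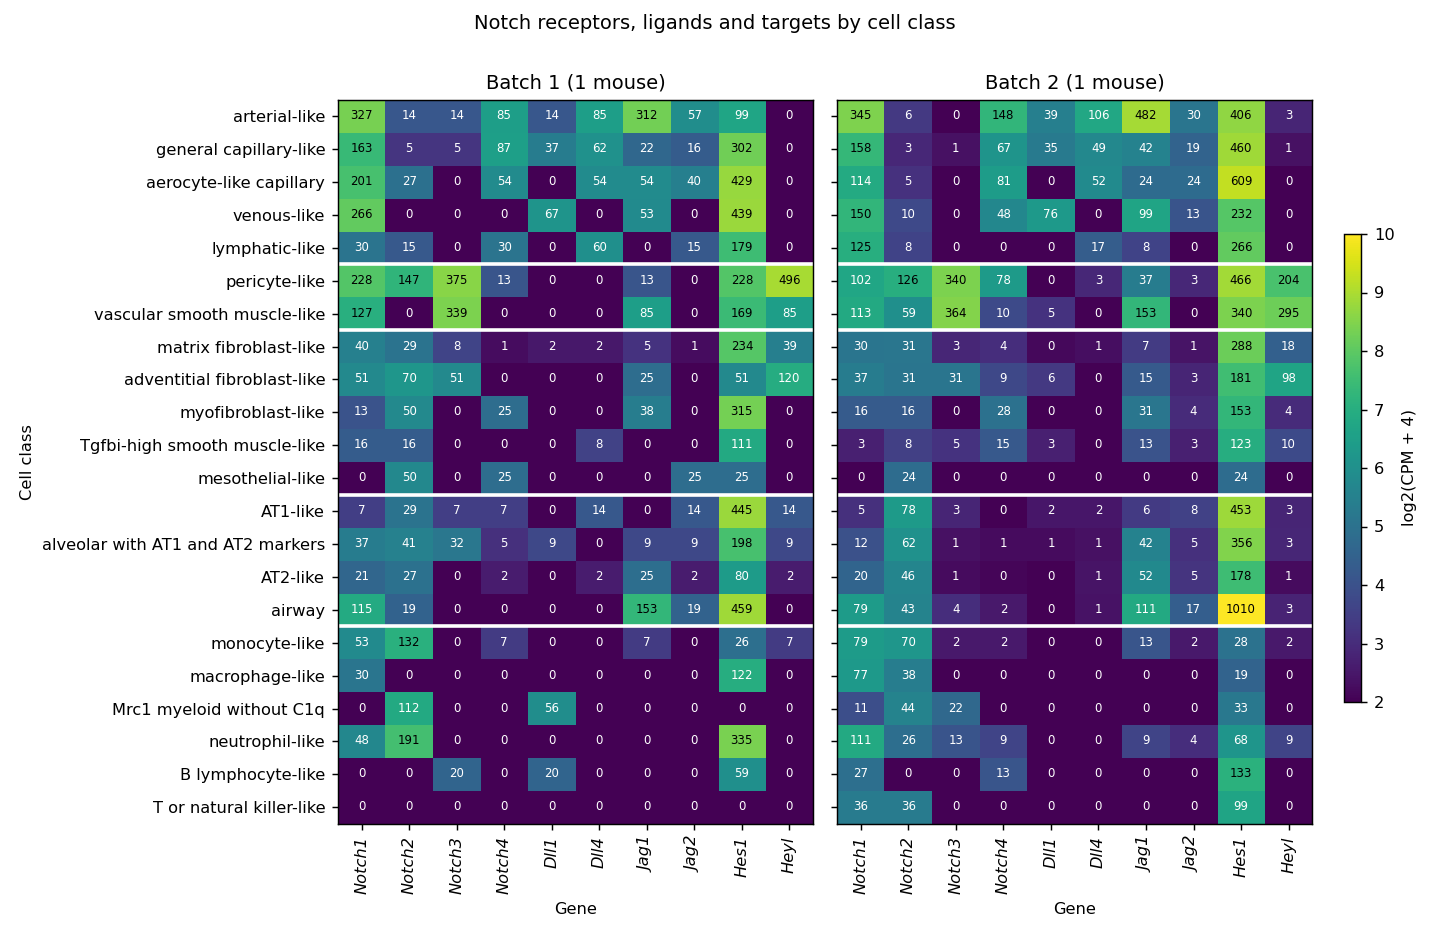
Heat map of the level of each gene (columns) in each cell class (rows) of Batch 1 and Batch 2, coloured by log2(CPM + 4) with the CPM printed in each cell and white lines between endothelial, mural, other mesenchymal, epithelial and immune classes. Notch3 and Heyl are bright in the mural rows, Notch4, Dll1 and Dll4 in endothelial rows, and Hes1 in most rows outside the immune classes.

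Among the receptors, Notch1 was carried by both the vessel lining and the vessel wall. Its level was 176 and 168 CPM in endothelial cells of Batch 1 and Batch 2 and 204 and 107 CPM in mural cells, against 28.3 and 28.4 CPM in epithelial cells and 36.4 and 71.8 CPM in immune cells. The endothelial values of both mice lay above all epithelial and immune values. At equal depth 14.1% and 14.3% of endothelial cells had a Notch1 UMI, against 9.86% and 10.0% of mural, 2.49% and 6.71% of immune and 2.28% and 1.44% of epithelial cells. Notch1 was higher in endothelial than in epithelial cells by 2.32 on the log2 scale (SE 0.32, adjusted p = 4.49e-05) and than in immune cells by 1.32 (SE 0.33, adjusted p = 0.0074). In mural cells it was 1.80 above epithelial cells (SE 0.38, adjusted p = 0.00251). The difference between endothelial and mural cells was 0.51 with a 95% interval from −0.17 to 1.2 (adjusted p = 0.387), and the mural values of the 2 mice lay on either side of the endothelial ones.

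Notch2 showed the reverse of the endothelial pattern. Its level was 7.82 and 4.23 CPM in endothelial cells against 112 and 98.5 CPM in mural, 89.3 and 47.0 CPM in immune and 30.6 and 53.7 CPM in epithelial cells, so that the endothelial values were below those of the other 3 compartments in both mice. The shares at equal depth were 0.785% and 0.564% of endothelial, 6.56% and 8.75% of mural, 6.86% and 3.96% of immune and 3.36% and 5.02% of epithelial cells. The fitted level was 17.2-fold higher in mural (log2 difference −4.11 for endothelial minus mural, SE 0.46, adjusted p = 1.81e-05), 13.2-fold higher in immune (adjusted p = 1.34e-05) and 10.3-fold higher in epithelial than in endothelial cells (adjusted p = 1.05e-05). Among mural, immune and epithelial cells no pair passed the test, and the difference of mural minus epithelial cells, the largest of these 3, was 0.74 with a 95% interval from 0.02 to 1.46 (adjusted p = 0.166).

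Notch3 had its highest level in the mural cells, which held 51.4% and 79.8% of its UMIs in Batch 1 and Batch 2. Other mesenchymal cells held 25.7% and 8.72% of the Notch3 UMIs. Its 36 UMIs in 76 mural cells of Batch 1 and 174 UMIs in 242 mural cells of Batch 2 gave 366 and 350 CPM (mean 358 ± 11.7 CPM, SD, n = 2), and no value in endothelial, immune or epithelial cells exceeded 9.07 CPM. At equal depth 32.4% and 28.9% of mural cells had a Notch3 UMI, against 0.277% and 0.035% of endothelial cells, where medians of 1292.5 and 1900 UMIs per cell were above the mural medians of 1145.5 and 1740.5. The mural level was 75.0 times the endothelial level in Batch 1 (interval 29.3 to 245) and 392.4 times in Batch 2 (interval 151 to 1456). Notch3 was higher in mural than in endothelial cells by 7.37 on the log2 scale (SE 0.53, adjusted p = 5.25e-07), than in epithelial cells by 6.37 (SE 0.50, adjusted p = 5.40e-07) and than in immune cells by 5.73 (SE 0.56, adjusted p = 4.52e-06).

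Notch4, a receptor known from endothelium, stood at 74.3 and 70.7 CPM in endothelial cells (mean 72.5 ± 2.55 CPM, SD, n = 2), at 3.40 and 0.759 CPM in epithelial cells and at 3.31 and 3.42 CPM in immune cells. The share at equal depth was 5.69% and 6.68% of endothelial cells against 0.496% and 0.0344% of epithelial cells. It was higher in endothelial than in epithelial cells by 5.85 on the log2 scale (SE 0.58, adjusted p = 1.76e-06) and than in immune cells by 4.25 (SE 0.65, adjusted p = 0.000159). Mural cells differed between the mice, with 1 Notch4 UMI (10.2 CPM) in Batch 1 and 25 UMIs (50.3 CPM) in Batch 2. The pericyte-like cells held most of these, at 13.4 and 78.2 CPM, while Cdh5, an endothelial junction protein, was at 40.2 and 17 CPM there and at 825 and 746 CPM in endothelial cells, and the part of stray endothelial RNA in the Notch4 value was not tested. The difference of endothelial minus mural cells was 1.08 with a 95% interval from 0.11 to 2.05 (adjusted p = 0.173), and mural cells were called above epithelial (4.78, SE 0.72, adjusted p = 0.000191) and immune cells (3.17, SE 0.80, adjusted p = 0.00951, lost at a mitochondrial limit of 5%) from mural counts of which all but 1 UMI came from Batch 2.

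**Figure D2:**
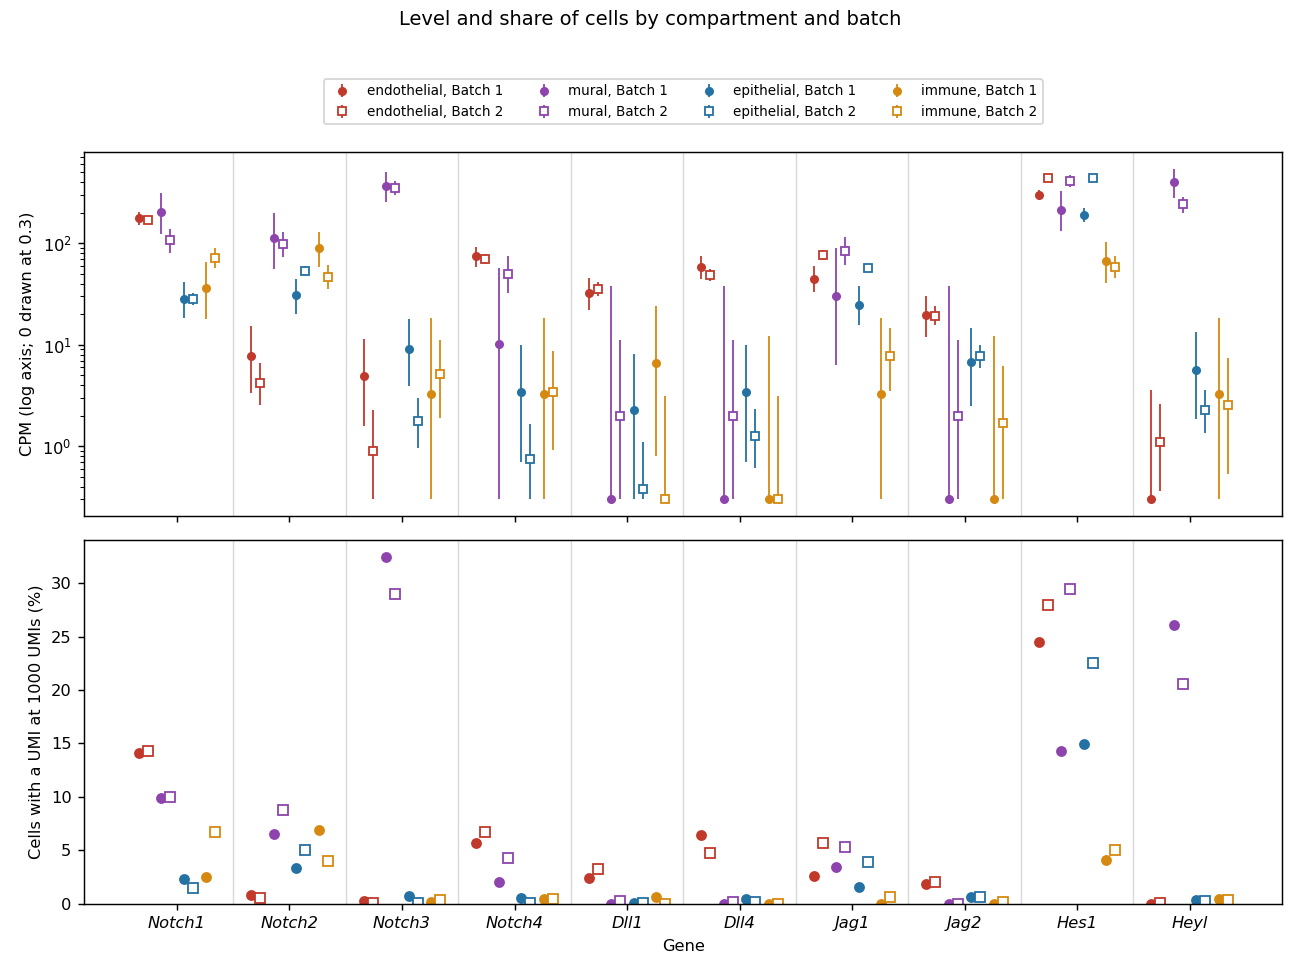
Level in CPM with exact 95% Poisson intervals on a log axis, with levels of 0 drawn at the foot (top), and share of cells with a UMI at 1000 UMIs per cell (bottom) for each gene (x axis) in endothelial, mural, epithelial and immune cells, with filled circles for Batch 1 and open squares for Batch 2. Notch3 reaches 32.4% and 28.9% and Heyl 26.1% and 20.6% of mural cells, while Notch2 is below 1% of endothelial cells in both batches.

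The delta-like ligands had most of their counts in endothelial cells. Dll4, the ligand of tip and arterial endothelial cells, stood at 58.6 and 49.0 CPM in endothelial cells, with a UMI in 6.43% and 4.78% of them at equal depth. Epithelial cells were at 3.40 and 1.26 CPM, and the difference was 4.66 on the log2 scale (SE 0.48, adjusted p = 4.10e-06). Mural cells held 0 UMIs of it in Batch 1 and 1 in Batch 2, where the endothelial level was 24.4 times the mural level (interval 4.33 to 968), and the test called the difference (adjusted p = 0.000858). Immune cells held 0 Dll4 UMIs in both batches, among 302219 and 1169617 UMIs, and against a floor of 3 UMIs per library the endothelial level was at least 5.91-fold and 19.1-fold higher.

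Dll1, another delta-like ligand, stood at 32.2 and 35.7 CPM in endothelial cells (33 and 160 UMIs), while mural cells held 0 and 1 UMIs, immune cells 2 and 0 and epithelial cells 2 and 3. The endothelial excess was 5.36 on the log2 scale against epithelial cells (SE 0.74, adjusted p = 3.86e-05), 4.26 against immune cells (SE 0.91, adjusted p = 0.00237) and 4.41 against mural cells (SE 1.13, adjusted p = 0.0128). The last of these calls was lost at a mitochondrial limit of 5%. In Batch 2 the endothelial level was 17.7 times the mural level, with an interval from 3.14 to 705. The share at equal depth was 2.43% and 3.29% of endothelial cells, against 0.108% and 0.0783% of epithelial cells with medians of 2175.5 and 3522.5 UMIs per cell.

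Jag1 was the most widely spread ligand. It stood at 44.9 and 76.9 CPM in endothelial cells, 30.5 and 84.4 CPM in mural cells and 24.9 and 57.4 CPM in epithelial cells, and at 3.31 and 7.69 CPM in immune cells. The higher value was that of Batch 2 in each of the 4 compartments, and over all filtered cells Jag1 was at 20.3 and 49.6 CPM. It was higher than in immune cells by 3.17 in endothelial (SE 0.43, adjusted p = 4.88e-05), 3.00 in mural (SE 0.48, adjusted p = 0.000378) and 2.87 in epithelial cells (SE 0.43, adjusted p = 0.00012). Between endothelial, mural and epithelial cells no difference was called, and the 95% intervals ran from −0.48 to 0.83 for endothelial minus mural, from −0.22 to 0.83 for endothelial minus epithelial and from −0.53 to 0.79 for mural minus epithelial cells.

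Jag2 was at 19.5 and 19.4 CPM in endothelial cells and at 6.80 and 7.71 CPM in epithelial cells, with 0 and 1 UMIs in mural and 0 and 2 UMIs in immune cells. The share at equal depth was 1.85% and 2.05% of endothelial and 0.61% and 0.629% of epithelial cells. It was higher in endothelial than in mural (3.71, SE 0.98, adjusted p = 0.0157, lost at a mitochondrial limit of 5%) and immune cells (3.63, SE 0.78, adjusted p = 0.00256), and the difference to epithelial cells was 1.15 with a 95% interval from 0.28 to 2.02 (adjusted p = 0.0568). Epithelial cells were above immune cells by 2.47 (SE 0.86, adjusted p = 0.0368), a call lost under 3 of the alternatives.

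Of the 2 target genes, Hes1, a transcriptional repressor that responds to Notch and to other signals, was present in all 4 compartments and lowest in immune cells. It stood at 299 and 442 CPM in endothelial, 214 and 414 CPM in mural and 189 and 437 CPM in epithelial cells, against 66.2 and 59.0 CPM in immune cells. The level was 6.27-fold higher in endothelial than in immune cells (log2 difference 2.65, SE 0.32, adjusted p = 1.88e-05), and mural (2.24, SE 0.34, adjusted p = 0.000227) and epithelial cells (2.63, SE 0.32, adjusted p = 1.83e-05) were above immune cells too. The shares at equal depth were 24.5% and 28% of endothelial, 14.3% and 29.4% of mural, 15.0% and 22.5% of epithelial and 4.09% and 5.06% of immune cells. Between endothelial and epithelial cells the difference was 0.02 with a 95% interval from −0.49 to 0.54 (adjusted p = 0.964). As for Jag1, the values of Batch 2 were above those of Batch 1 in endothelial, mural and epithelial cells.

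Heyl, a repressor of the Hey family, followed Notch3. It stood at 397 and 241 CPM in mural cells, 41.4 and 23.7 CPM in other mesenchymal cells and at 5.67 CPM or less in endothelial, immune and epithelial cells, with 0 and 5 UMIs in 532 and 1463 endothelial cells. The share at equal depth was 26.1% and 20.6% of mural cells against 0% and 0.0817% of endothelial cells. In Batch 1 the mural level was at least 135-fold higher than the endothelial floor of 3 UMIs, and in Batch 2 it was 216.5 times the endothelial level (interval 90.2 to 679). The excess of mural cells was 7.94 on the log2 scale over endothelial (endothelial minus mural −7.94, SE 0.47, adjusted p = 1.81e-07), 6.10 over epithelial (SE 0.40, adjusted p = 2.07e-07) and 6.21 over immune cells (SE 0.50, adjusted p = 9.89e-07). Heyl was also called lower in endothelial than in epithelial cells (−1.84, SE 0.66, adjusted p = 0.0411), a call lost under 7 alternatives.

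Without the draw to equal depth, most shares were higher in Batch 2, whose cells were deeper. Notch3 had a UMI in 35.5% of mural cells of Batch 1 (95% Wilson interval 25.7 to 46.7%) and in 46.7% of those of Batch 2 (40.5 to 53.0%). Notch1 had one in 20.9% and 29.1% of endothelial, 15.8% and 18.6% of mural, 5.68% and 12.6% of immune and 6.92% and 8.44% of epithelial cells, and Notch2 in 1.32% and 1.23%, 11.8% and 16.5%, 12.5% and 8.97%, and 7.23% and 20.5% of the same compartments in that order. Notch4 had one in 9.96% and 16.6% and Dll4 in 8.83% and 11.6% of endothelial cells, and Heyl in 31.6% and 33.5% of mural cells. Hes1 had one in 31.8% and 45.4% of endothelial and 29.6% and 49.0% of epithelial cells, and Jag1 in 18.8% and 43.0% of arterial-like and 2.63% and 10.0% of general capillary-like cells. The draw left out 161 and 183 endothelial, 27 and 25 mural, 33 and 51 immune and 20 and 60 epithelial cells with fewer than 1000 UMIs. Dll4 was found in 0 of 176 and 0 of 524 immune cells, with upper Wilson bounds of 2.14% and 0.728%.

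Counted over the 6 pairs of compartments, 6 of the 10 genes were called between endothelial and mural cells (3 in each direction), where 17% of 11829 genes were called. Between endothelial and epithelial cells 6 were called (4 higher in endothelial cells) beside 36.3% of all genes, and between endothelial and immune cells 8 (7 higher in endothelial cells) beside 29.1%. Mural cells differed from epithelial cells in 4 genes beside 25.4% and from immune cells in 5 genes beside 25.2%, with the mural level higher in all 9. Epithelial and immune cells differed in 4 genes beside 34.7%, of which Hes1, Jag1 and Jag2 were higher in epithelial cells and Notch1 in immune cells (log2 difference −0.99, SE 0.36, adjusted p = 0.0434, lost under 4 alternatives). The pairs share compartments and their p-values were not adjusted over the 6 pairs. These sums per compartment were chosen after the data had been seen, because a mean over the log2 levels of classes gave no usable test where a class had 0 UMIs in both mice.

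**Figure D3:**
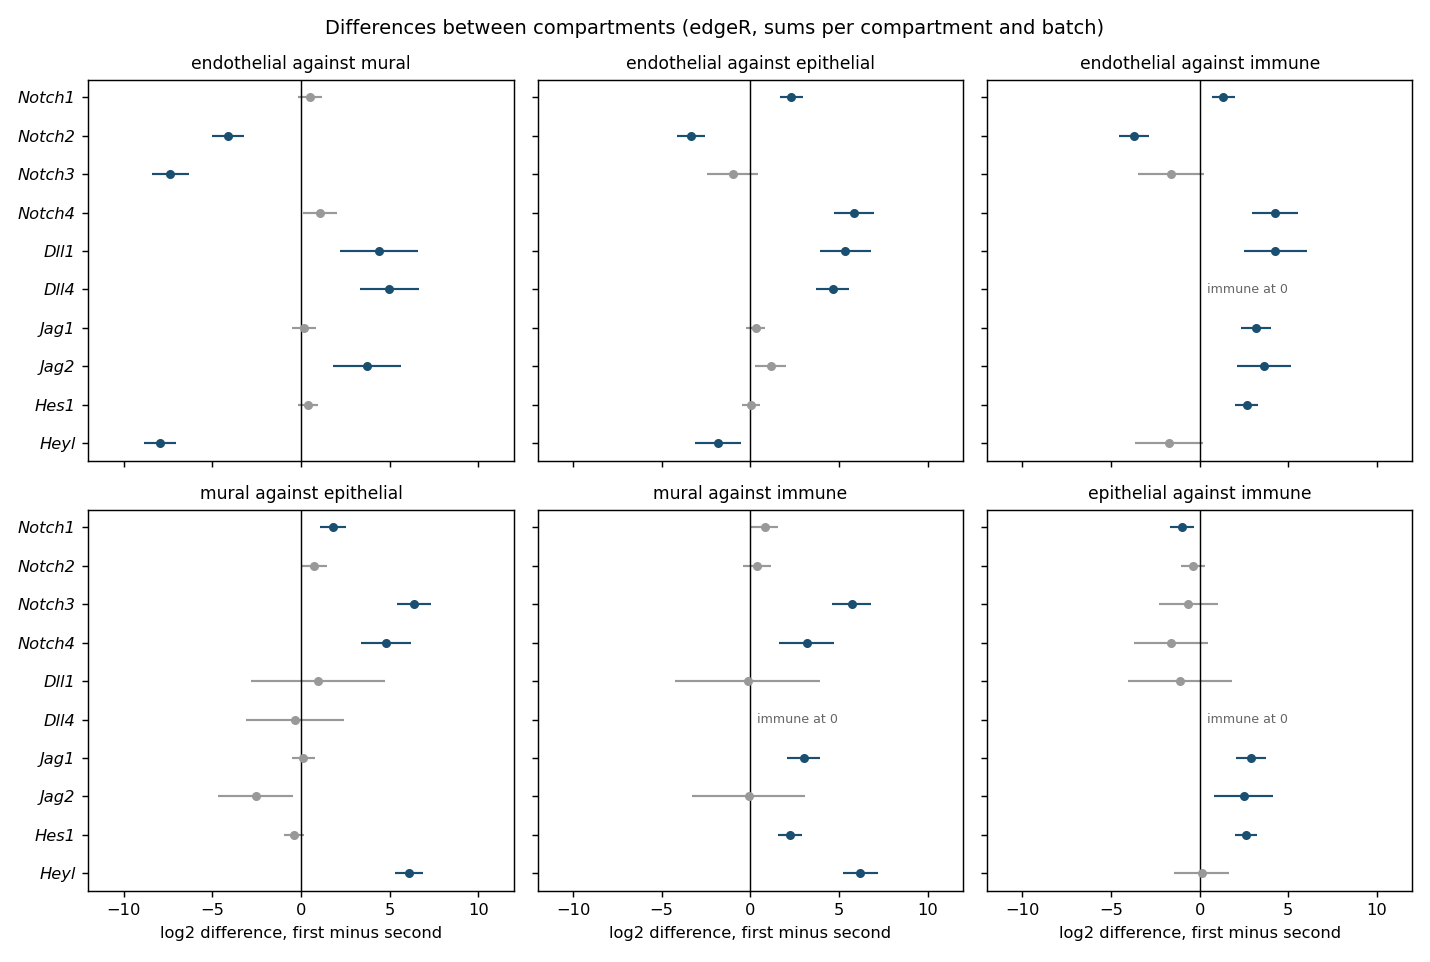
Fitted log2 difference (points) with 95% intervals (bars) for each gene in the 6 pairs of compartments, first minus second, with dark points for calls at an adjusted p under 0.05 and grey points otherwise; Dll4 is not drawn against immune cells, which held 0 UMIs. Notch2, Notch3 and Heyl lie left of 0 and Dll1, Dll4 and Jag2 right of 0 for endothelial minus mural cells.

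In the fit over the 22 classes, where 8 of the 10 genes passed the filter on low counts and Dll1 and Jag2 did not, a compartment was set against the mean of the 4 others. Endothelial classes were called higher for Hes1, Jag1, Notch1 and Notch4, 4 genes beside 22.4% of 7239 genes. The call of Jag1 was lost under 2 alternatives, and its direction reversed in Batch 1 cells with the types listed in the study. Thinning each cell to 1000 UMIs left 2 calls. Mural classes were called higher for Hes1, Heyl, Jag1, Notch1, Notch2 and Notch3, 6 genes beside 13.7%. The call of Hes1 was lost under 6 alternatives, that of Jag1 under 2 and that of Notch2 under 1. Hes1 reversed in the listed Batch 1 cells. Epithelial classes were called higher for Hes1, Jag1 and Notch2, 3 genes beside 35%. The call of Jag1 was lost under 2 alternatives and 1 call was left after thinning. The epithelial sum of Jag1 was below the endothelial and mural sums. Immune classes were called lower for Hes1 alone, 1 gene beside 29.2%. Of the genes called for any compartment, all but Hes1 had at least 1 class at 0 in both mice. These were, among others, macrophage-like cells for Heyl, Jag1, Notch3 and Notch4, mesothelial-like cells for Notch1 and B lymphocyte-like cells for Notch2. Such calls carry the limit given above for a mean over log2 levels of classes. On the sums per compartment the same contrasts called 10 genes for endothelial (beside 26.7%), 6 for mural (12.8%), 8 for epithelial (35.2%) and 4 for immune cells (30.6%). Their genes and directions differed in part from the class fit. Heyl, Notch2 and Notch3 were lower in endothelial cells and the rest higher. In mural cells all were higher, with Notch4 called and Hes1 not (log2 difference 0.42, adjusted p = 0.293). Heyl, Notch1, Notch3 and Notch4 were lower in epithelial cells and the rest higher. In immune cells Notch2 was higher and Hes1, Heyl and Jag1 were lower.

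Within the endothelium, the arterial-like cells stood out by Jag1. Its level was 312.5 and 482 CPM in arterial-like cells, against 21.7 and 42.4 CPM in general capillary-like cells, which carry the common capillary markers, and 53.6 and 23.8 CPM in aerocyte-like capillary cells, the capillary cells that line the gas exchange surface. At equal depth 15.6% and 28.9% of the arterial-like cells had a Jag1 UMI, against 1.51% and 3.78% of general capillary-like cells, at medians of 1357 and 1954 against 1231.5 and 1937.5 UMIs per cell. The difference to the capillary classes was 3.50 on the log2 scale (SE 0.40, adjusted p = 1.34e-09), and Jag1 was the 1 gene of 8 called, where 4.34% of 7239 genes were called. Notch1 was also highest in arterial-like cells, at 327 and 345 CPM against 163 and 158 CPM in general capillary-like and 201 and 114 CPM in aerocyte-like cells, with a difference of 1.01 (SE 0.37, adjusted p = 0.129). The class next in order was venous-like at 266 and 150 CPM. The ratio of arterial-like to venous-like cells was 1.23 in Batch 1 (interval 0.645 to 2.36) and 2.31 in Batch 2 (interval 1.63 to 3.32). In Batch 1 the difference was thus within counting error.

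Dll4 and Dll1 were split among the endothelial classes in different ways. Dll4 was at 85.2 and 106 CPM in arterial-like, 62.5 and 49.0 CPM in general capillary-like and 53.6 and 52.4 CPM in aerocyte-like cells. Lymphatic-like cells were at 59.6 and 16.6 CPM, and 0 UMIs were counted in the 17 and 50 venous-like cells. Against a floor of 3 UMIs per library, the arterial-like level was at least 2.13-fold and 11.1-fold and the general capillary-like level at least 1.57-fold and 5.13-fold higher than the venous-like one. Dll1 was highest in the same venous-like cells, at 66.5 and 76.4 CPM. General capillary-like cells were at 36.7 and 35 CPM and arterial-like cells at 14.2 and 39.4 CPM, so that their order differed between the mice. The ratio of venous-like to general capillary-like cells was 1.81 in Batch 1 (interval 0.545 to 4.78) and 2.18 in Batch 2 (interval 1.35 to 3.40). Aerocyte-like cells held 0 Dll1 UMIs in both batches, and the venous-like level was at least 1.66-fold and 5.35-fold higher. Neither comparison was part of a fitted test, and the venous-like cells were few. Of the venous markers used for naming them, Vwf alone was among their leading genes, beside Lyve1, which also led general capillary-like clusters. Their name is thus weakly borne out.

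Notch4 was at 85.2 and 148 CPM in arterial-like, 86.9 and 67.2 CPM in general capillary-like and 53.6 and 80.9 CPM in aerocyte-like cells. General capillary-like cells were thus the highest of the 3 in Batch 1 and the lowest in Batch 2. The arterial-like differences of Notch4 (0.57, SE 0.55, adjusted p = 0.802) and Dll4 (0.77, SE 0.58, adjusted p = 0.704) did not pass the test. Jag2 was at 56.8 and 30.3 CPM in arterial-like and 40.2 and 23.8 CPM in aerocyte-like cells, from 4 and 3 UMIs in Batch 1. Hes1 was at 99.4 and 406 CPM in arterial-like cells and at 429 and 609 CPM in aerocyte-like cells, the arterial-like difference being −0.86 (SE 0.40, adjusted p = 0.318). In lymphatic-like cells Notch4 was at 29.8 CPM in Batch 1 and 0 in Batch 2, and 0 of 8 genes were called against capillary cells, where 12% of all genes were called. At an unadjusted p under 0.05 there were 3 genes, Notch4 (−2.83, SE 1.03), Jag1 (−2.69, SE 1.16) and Hes1 (−1.08, SE 0.44), and DESeq2 called 0.

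Within the mural cells, Notch3 did not separate pericyte-like cells (375 and 340 CPM) from vascular smooth muscle-like cells (339 and 364 CPM), with a difference of 0.06 (SE 0.52, adjusted p = 1). Heyl was at 496 and 204 CPM in pericyte-like and 84.7 and 295 CPM in vascular smooth muscle-like cells, so that the order of the classes was opposite in the 2 mice, with 2 UMIs behind the lowest value. Jag1 was the 1 gene of 8 called, where 3.72% of all genes were called. It was at 84.7 and 153 CPM in vascular smooth muscle-like cells against 13.4 and 37.4 CPM in pericyte-like cells (difference 2.13, SE 0.63, adjusted p = 0.0415), and the call was lost under 7 alternatives. Notch2 was at 147 and 126 CPM in pericyte-like cells and at 0 and 59.1 CPM in vascular smooth muscle-like cells (−1.36, SE 0.66, adjusted p = 0.349). Notch3 and Heyl UMIs were found together in 11 of 63 and 26 of 151 pericyte-like cells and in 1 of 13 and 23 of 91 vascular smooth muscle-like cells. In the pericyte-like cells Notch3 had a UMI in 21 and 71 and Heyl in 22 and 44. In the vascular smooth muscle-like cells these counts were 6 and 42 for Notch3 and 2 and 37 for Heyl. The counts are not at equal depth, and an overlap beyond that given by these frequencies was not tested. Outside the mural classes the next highest class for both was the adventitial fibroblast-like cells, with Notch3 at 50.7 and 30.7 CPM and Heyl at 120 and 98.2 CPM.

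**Figure D4:**
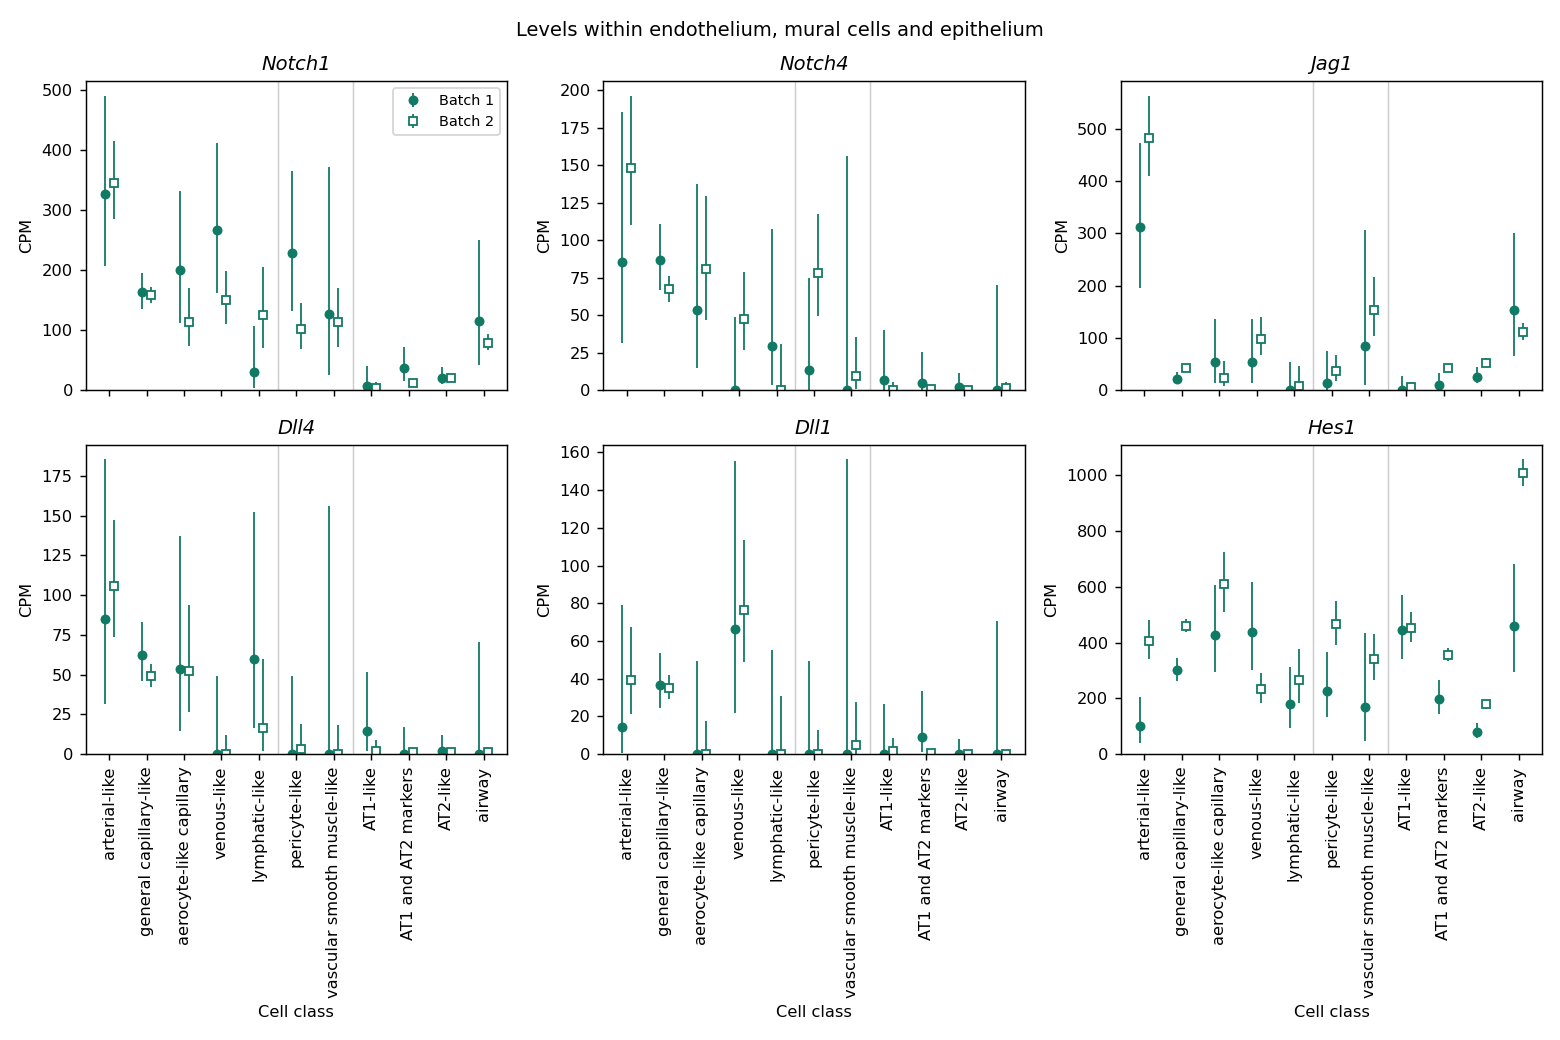
Level in CPM (y axis, a scale of its own in each panel) with exact 95% Poisson intervals of Notch1, Notch4, Jag1, Dll4, Dll1 and Hes1 in the endothelial, mural and epithelial classes (x axis, grey lines between compartments), with filled circles for Batch 1 and open squares for Batch 2. Jag1 peaks in arterial-like cells at 312.5 and 482 CPM, and Dll1 is highest in the venous-like cells, where Dll4 is at 0.

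In the epithelium, the airway cells carried more of 3 genes than the alveolar classes. Both of their clusters were led by the secretory cell genes Scgb1a1 and Scgb3a2, and the larger, with 9 and 88 cells, also had the ciliated cell genes Foxj1, Ccdc153, Dynlrb2 and Lrriq1 among its leading genes. The class thus mixes both. Hes1 reached 459 and 1010 CPM there (difference 1.45, SE 0.33, adjusted p = 0.000549), Jag1 153 and 111 CPM (2.52, SE 0.41, adjusted p = 2.05e-06) and Notch1 115 and 79.4 CPM (2.71, SE 0.43, adjusted p = 1.22e-06), and these were 3 of 8 genes called beside 18.2% of all genes. The 13 and 119 airway cells were deep, with medians of 3431 and 6076 UMIs, and at equal depth 36.2% and 49.0% of them had a Hes1 UMI, 10.7% and 8.64% a Jag1 UMI and 12.1% and 5.52% a Notch1 UMI. In AT2-like cells, at medians of 2147 and 3567 UMIs, these shares were 7.50% and 12.6% for Hes1, 1.68% and 4.54% for Jag1 and 1.89% and 1.42% for Notch1. Jag1 and Notch1 UMIs were found together in 2 of 13 and 32 of 119 airway cells, where Jag1 had a UMI in 5 and 55 and Notch1 in 5 and 44. These counts are not at equal depth, and an overlap beyond that given by the frequencies was not tested.

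Between the alveolar cell types, Hes1 was higher in the flat alveolar type 1 (AT1)-like cells at 445 and 453 CPM than in the surfactant-producing AT2-like cells at 80.3 and 178 CPM (1.55, SE 0.43, adjusted p = 0.00832). Without the replicate block, the adjusted p for Hes1, AT1-like against AT2-like, was 0.197 and the call was lost. Jag1 went the other way, at 0 and 6.22 CPM in AT1-like and 25.4 and 52.0 CPM in AT2-like cells (−3.33, SE 0.70, adjusted p = 0.000379). These were 2 of 8 genes called, where 11.4% of all genes were called. Notch1 was at 7.18 and 4.67 CPM in AT1-like and 21.1 and 20.04 CPM in AT2-like cells (−2.15, SE 0.79, adjusted p = 0.0675), and Notch2 at 28.7 and 77.8 CPM and at 27.5 and 46.1 CPM (0.43, SE 0.48, adjusted p = 0.722). Cells with markers of both types lay between them for Hes1, at 198 and 356 CPM, and had medians of 4476 and 5697.5 UMIs. The 3 alveolar classes held no more than 14.4 CPM of Dll4 and 9.20 CPM of Dll1.

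Among the immune cells, Notch1 and Notch2 had most of the receptor counts. Notch2 was at 132 and 69.8 CPM in monocyte-like cells, with a UMI in 9.12% and 5.64% of them at equal depth, and Notch1 at 52.7 and 79.2 CPM in the same cells. In macrophage-like cells Notch1 was at 30.4 and 76.8 CPM from 1 and 8 UMIs. Neutrophil-like cells had Notch2 at 191 CPM in Batch 1 from 4 UMIs and at 25.7 CPM in Batch 2 from 6. Hes1 was at 26.4 and 28.3 CPM in monocyte-like cells. Against the other immune classes 0 of 8 genes were called in macrophage-like cells, where 5.58% of all genes were called, with 0 at an unadjusted p under 0.05 and 0 in DESeq2. Dll4, Heyl, Jag1, Notch3 and Notch4 were at 0 in macrophage-like cells of both mice, so that this fit gives no usable test of them.

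The other pathway genes were followed as a list of 38, of which 33 were tested on the sums per compartment and 22 in the classes. Between endothelial and mural cells, where 17% of all genes were called, the median log2 difference was 0.23 against 0.12 over all genes. Of the 33, 11 were called, 5 higher in endothelial and 6 in mural cells. The largest were Dlk1, a ligand without the domain that activates the receptor, at 8.79 and 18.1 CPM in endothelial and 417 and 388 CPM in mural cells (−4.57, SE 0.40), the target Hey2 at 5.86 and 2.01 CPM against 30.5 and 82.4 CPM (−4.15, SE 0.87), and Lfng, a glycosyltransferase that modifies the receptors, at 54.7 and 37.7 CPM against 20.4 and 0 CPM (3.72, SE 0.86). Between endothelial and epithelial cells 11 were called beside 36.3% of all genes, 9 of them higher in endothelial cells. The median was 0.23 against −0.01 over all genes. The target Hey1 stood at 135 and 137 CPM in endothelial and 2.27 and 0.885 CPM in epithelial cells (6.62, SE 0.48), Mfng, a relative of Lfng, at 87.9 and 50.6 CPM against 4.54 and 0.253 CPM (5.79, SE 0.58), and Dlk1 at 8.79 and 18.1 CPM against 548 and 1010 CPM (−5.99, SE 0.40).

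Against immune cells 5 of the 33 were higher and 4 lower in endothelial cells and 5 higher and 4 lower in mural cells, with medians of 0.09 and 0.06 against 0.04 and −0.06 over all genes. Of all genes 29.1% and 25.2% were called in these comparisons. Hey1 in endothelial cells (3.96, SE 0.47) and Nrarp, a target that dampens the signal, in mural cells at 132 and 82.4 CPM against 3.40 and 5.24 CPM (3.96, SE 0.56) were among the largest, while Lfng was lower in mural than in immune cells (−4.00, SE 0.88) and Aph1b, a subunit of the receptor-cutting secretase, lower in endothelial than in immune cells (−2.29, SE 0.51). Hey2 was at 0 in the immune cells and at 30.5 and 82.4 CPM in the mural cells. Between mural and epithelial cells 6 were higher in mural cells, led by Hey2 (5.89, SE 0.95), Hey1 (3.86, SE 0.75) and Nrarp (3.49, SE 0.43), and 2 in epithelial cells (median 0.12 against −0.16 over all genes). Between epithelial and immune cells 2 were higher in epithelial and 5 in immune cells (median −0.06 against 0.07 over all genes), with Dlk1 higher (4.63, SE 0.40) and Mfng (−4.18, SE 0.74) and Hey1 (−2.67, SE 0.79) lower in epithelial cells. The shares of all genes called were 25.4% between mural and epithelial cells and 34.7% between epithelial and immune cells.

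In the fit over classes, 8 of 22 such genes were called for endothelial classes against the other compartments (7 higher), led by Hey1 (3.79, SE 0.53), Lfng (2.24, SE 0.48) and Dtx3 (−1.99, SE 0.39), and 5 were called higher for mural classes, led by Hey2 (5.92, SE 0.74), Nrarp (4.53, SE 0.46) and Dlk1 (2.85, SE 0.30). Hey2 was at 0 in the immune classes of both mice, so that its fitted value is no measure of size. For epithelial classes 3 were higher and 1 lower, the largest being Dlk1 (1.78, SE 0.28), Mib1 (0.80, SE 0.25) and Itch (0.68, SE 0.23), and for immune classes 2 were higher and 3 lower, the largest being Dlk1 (−3.14, SE 0.51), Mfng (2.62, SE 0.72) and Lfng (2.57, SE 0.57). The medians were 0.31 for endothelial, −0.11 for mural, −0.24 for epithelial and −0.47 for immune classes, against 0.05, 0.0049, 0.13 and −0.38 over all genes. The shares of all genes called were 22.4%, 13.7%, 35% and 29.2% in the same order. In arterial-like cells Nrarp (2.43, SE 0.70) and Hey1 (1.68, SE 0.41) were higher than in capillary cells. In lymphatic-like cells 3 were higher and 1 lower, led by Psen2 (2.49, SE 0.57), and for the largest, Mfng (−8.07, SE 1.94) and Dtx1 (7.12, SE 1.37), 1 class of the comparison was at 0 in both mice, so that these fitted values are no measure of size. Airway cells were higher in Nrarp (3.74, SE 0.64) and Lfng (2.48, SE 0.62) and lower in 2 genes, of which Dlk1 fell furthest (−4.33, SE 0.62). In AT1-like against AT2-like cells Dlk1 was lower (−5.53, SE 0.56) and Adam10, a protease that cuts the receptors, higher (1.14, SE 0.38). For vascular smooth muscle-like against pericyte-like cells and for macrophage-like against other immune cells 0 of the 22 were called, with 3 and 3 at an unadjusted p under 0.05. Of all genes 4.34% were called for arterial-like, 12% for lymphatic-like and 18.2% for airway cells. The shares were 11.4% for AT1-like, 3.72% for vascular smooth muscle-like and 5.58% for macrophage-like cells in these comparisons.

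The genes whose pattern over the 22 classes was most like each member were listed by the lower of the correlations of log2 CPM in the 2 batches, among 7982 genes. The classes of a batch share a library and the correlations are descriptions. Notch3 and Heyl were each among the 3 genes closest to the other (r = 0.871 in Batch 1 and 0.887 in Batch 2), and no other member had a gene of the pathway list among its 3. Next to Notch3 stood Aoc3 (lower r = 0.895) and Fabp7 (0.852), and next to Heyl Foxs1 (0.826) and Ndufa4l2 (0.824). Dll4 was closest to Ushbp1 (0.843), Sox18 (0.833) and Rasip1 (0.783), and Dll1 to Tmem252 (0.719), Jam2 (0.71) and Fam171a1 (0.638). Notch4 was closest to Upp1 (0.753) and Jag2 to Acer2 (0.77), and both had Sema7a and 2500002B13Rik among their 3. The closest gene was 0610009E02Rik for Notch1 (0.725), Flot2 for Notch2 (0.693), Tle1 for Jag1 (0.65) and Crip2 for Hes1 (0.755).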

How the data were processed

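Whole lungs of 2 PND1 mice were dissociated and run by Drop-seq, 1 mouse per batch. The values are UMI counts per gene and cell that the authors deposited without normalisation. Reads had been aligned to mm10 with Bowtie2 2.2.7 and UMIs over exons counted with Drop-seq tools, per the study's methods and the submitters' processing notes. Counting by a single reported alignment per read can split reads between similar sequences. The files held 9944 cells of at least 500 genes, and cells with over 10% mitochondrial UMIs were removed here (1 in Batch 1 and 1940 in Batch 2).

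Counts were log-normalised and scaled within each batch, and 2000 variable genes, without the 10 members and 38 pathway genes, gave 40 components, 15 neighbours and 40 Leiden clusters at resolution 2 (scanpy 1.11.5, leidenalg 0.10.2, Python 3.11.15). Classes were named from marker lists, and names of the study may differ from these rebuilt ones. The 440 cells of no class, 3 mural cells with cardiac genes and 5 lymphoid cells with platelet genes among them, entered no comparison. Scrublet called 0.544% and 2.102% of cells doublets, which were kept, and leaving them out was an alternative. Cells with fewer than 1000 UMIs (527 and 580) are absent from shares at equal depth.

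Tests were edgeR 4.0.16 quasi-likelihood tests with TMM and filterByExpr (R 4.3.3) on counts summed per class and batch (44 sums, 7239 genes) with class and batch as terms, and, chosen after the data were seen, on sums per compartment and batch (11829 genes). Basophil or mast-like cells, too few in Batch 1, are in the immune levels but not in the fits. The batch number pairs sums that come from the same mouse. With 2 mice, no permutation test can reach 0.05, and p-values measure the spread between sums of these mice. On data simulated for endothelial against other compartments in the class fit, 5168 genes passed the filter. Of the changed genes among them, 75.81% of 62 changed by 1 and 100% of 91 changed by 2 on the log2 scale were found. Changed genes that failed the filter on low counts are not in these shares, and the sums per compartment were not simulated. Each simulated gene had the same mean level in all classes outside the endothelium. Genes absent from a class by type were thus not simulated, and these shares do not apply to them. DESeq2 1.42.0, no batch term, other filters, limits, clusterings and depths were alternatives.

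All 10 members were named in each comparison, other pathway genes by counts and the largest calls, and like genes as the 3 with the highest lower correlation. The members and lists were chosen with earlier results of these data known. Gene positions are from GENCODE M21 and promoter windows from RefSeq.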

Additional observations from a re-analysis of the deposited data

Results flagged for a closer look

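The 1940 cells of Batch 2 over the mitochondrial limit enter no comparison above, and all 10 genes were counted in them, above what a count of 0 allows. They held 351 UMIs of Notch1, 321 of Notch2, 75 of Notch3 and 94 of Notch4. Of the ligands they held 36 UMIs of Dll1, 49 of Dll4, 273 of Jag1 and 41 of Jag2, and of the targets 1322 of Hes1 and 72 of Heyl. In the 409 of these cells that fell with endothelial cells, Notch1 was at 217 CPM, Notch4 at 81.5 CPM, Dll4 at 45.2 CPM and Dll1 at 36.4 CPM. In the 121 that fell with mural cells, Notch3 was at 207 CPM, Notch2 at 173 CPM and Heyl at 150 CPM, and Dll1 and Dll4 at 0.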

How the results depend on the processing

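Of the counts of called genes recomputed under an alternative, 142 stayed within 1.5 times the count given and 26 did not. Of the levels and shares, 639 stayed within 1 SD of the 2 batches and 241 moved by more, most often without thinning, at a draw of 2000 UMIs, with at least 2 UMIs asked for, or in the listed Batch 1 cells. The 639 include values with either batch left out. With 2 batches such a value lies within 1 SD by construction wherever the batches differ, so it cannot show stability. For the compartments, sums per compartment gave 10, 8 and 4 genes for endothelial, epithelial and immune cells, DESeq2 gave 8, 7 and 3, and thinning each cell to 1000 UMIs gave 2 for endothelial and 1 for epithelial cells. For immune cells a mitochondrial limit of 5% gave 3 and no limit 2, and for epithelial against immune cells the limit of 5% gave 2. Arterial-like against capillary cells gave 2 genes without barcodes that end in N and 3 in a fit of only the classes compared. Lymphatic-like cells gave 1 without the filter on low counts, 1 with no mitochondrial limit and 2 in a fit of only the classes compared. Vascular smooth muscle-like against pericyte-like cells gave 0 with no filter on low counts, a limit of 5%, coarser or finer clusters, thinning, or without barcodes that end in N, and 2 with no mitochondrial limit. Without the replicate block, which pairs sums of the same mouse, the count was 0 for vascular smooth muscle-like against pericyte-like, 1 for AT1-like against AT2-like and 2 for epithelial against immune cells, and the other counts stayed within 1.5 times.

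Of the log2 differences of called genes, 489 kept the call or, if without a test, stayed within the spread between the batches. Another 38 lost the call, 39 values without a test moved by more than that spread and 2 reversed. Both reversals were in Batch 1 cells with the types listed in the study, with a value of −0.0489 for Jag1, endothelial against other compartments, and of −0.24 for Hes1, mural against other compartments. The cause was not tested. Leaving out either batch leaves no residual degrees of freedom and gives values without a test. The spread between the batches was taken from these same values, so any of them counted among the 489 cannot show stability. The fit of only the classes compared was not run for the compartments. Classes of few cells, such as venous-like (17 and 50) and airway (13 and 119), limit what counts of 0 can show.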
